A study of Homo sapiens with 27 samples.

Results

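The homologous recombination and Fanconi genes are a set of 35 genes of DNA repair, chosen by symbol and without use of their values, and all 35 were among the 13523 genes of the expression table. They were followed in 501mel cells, a human melanoma cell line with high MITF. The 9 groups, each labelled with 3 libraries, were WT cells without treatment, WT cells after 12 h of amino acid starvation in HBSS (a saline that does contain glucose), WT cells after 12 h with the mTOR inhibitor Torin at 250 nM, and, for each of TFE3 KO, TFEB KO and TFE3/TFEB double KO (DKO), a 12 h control and 12 h with 250 nM Torin. TFE3 and TFEB are transcription factors of the MITF family whose entry into the nucleus mTORC1 restrains in fed cells. The study nonetheless saw TFE3 mostly in the nucleus of 501mel cells without Torin. It also proposes that both factors act on transcription in fed cells. All groups came from the same line and were kept with serum, in DMEM by the labels and in RPMI by the study's methods. For the 12 h of HBSS this medium was replaced. The study describes HBSS as lacking amino acids and does not mention serum in it. Loss of amino acids therefore cannot be told apart there from loss of serum or other medium components. WT cells were labelled as not treated whereas the knockouts had a labelled 12 h control. Each knockout was made with Cas9 and was 1 clone per the study's methods, so clone and genotype cannot be told apart, and nothing in the labels says that replicate libraries came from separate cultures. The p-values therefore measure the spread between these libraries, which may be technical.

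Homologous recombination mends double-strand breaks and broken replication forks from a sister chromatid, and so works in S and G2 phases. The MRN complex (MRE11A, RAD50, NBN) and RBBP8 start the cutting back of DNA ends, EXO1 and BLM lengthen it, and BRCA1, BARD1, PALB2 and BRCA2 then prepare the cut-back DNA for strand exchange with the sister, which RAD51C, RAD51D, XRCC2, XRCC3 and the RAD54 proteins assist. The Fanconi core complex, with the ubiquitin-conjugating enzyme UBE2T, marks the FANCD2 and FANCI pair at crosslinked DNA, and ATM, ATR and their partners and targets (ATRIP, TOPBP1, CHEK1, CHEK2) signal the damage. Many of these genes are known to be transcribed most in S phase.

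RNA was read from 3′ ends, so that a value is a normalised read count on the counts-per-million scale and does not grow with transcript length. Replicate 3 of WT HBSS and replicate 1 of WT Torin, as labelled, held the same values in every gene, and this column was left out of both groups. Its median absolute difference on the log2 scale was 0.162 from the mean of the other WT HBSS libraries and 0.478 from that of the other WT Torin libraries, and 77.3% of the genes tested, 23 of the 35 members among them, lay nearer to the HBSS mean. TFEB was 23.9 in this column, 28.0 and 30.4 in the other HBSS libraries and 4.27 and 5.63 in the other Torin libraries. No group was assigned to the column from these values. WT HBSS (replicates 1 and 2) and WT Torin (replicates 2 and 3) therefore have n = 2 and the other groups n = 3. The 25 libraries used held 4147050 to 6526392 reads, and 3 reads are worth 0.460 to 0.711. All 35 members passed the filter on low values, and the member with the fewest reads in any library was FANCC, with 8. Melanocyte genes were high in all libraries (7 of 7 markers, with mean values of 193.8 to 2938), 3 of 6 fibroblast markers were in the table at means of 0.701 to 1.93, and 0 of 5 immune, 0 of 3 keratinocyte and 0 of 3 endothelial markers were in it. TFE3 was 22.7 to 31.4 in the WT and TFEB KO libraries without drug and 5.06 to 7.59 in those of TFE3 KO and DKO, and with Torin it was 17.5 to 20.4 in WT, 16.5 to 19.003 in TFEB KO, 9.13 to 13.99 in TFE3 KO and 6.15 to 8.46 in DKO. TFEB was low throughout outside HBSS. It was 2.34 to 3.96 in untreated WT, 0.750 to 1.66 in TFEB KO controls, 0.177 to 1.56 in TFE3 KO controls and 0.156 to 1.05 in DKO controls, and with Torin 0.611 to 3.45 in TFEB KO, 1.34 to 2.29 in TFE3 KO and 0.190 to 0.984 in DKO. The TFEB level therefore does not set TFEB KO apart from TFE3 KO, and TFEB KO Torin replicate 1, at 3.45, lies within the untreated WT range. Whether 3′ reads cover the edited sites was not examined here, so these levels do not test the edits. A gene passed when its limma adjusted p was under 0.05 among 13052 genes. Log2 fold changes are on the log2(value + 1) scale, which understates the change of low genes.

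The promoters of 7 members are printed because the results turn on these genes: the 5 with the largest mean fall with Torin over the 4 genotypes, and the only 2 that rose with Torin in all 4. Each run is 300 bases, from 250 before to 50 after the RefSeq start, written 5′ to 3′ on the strand of the gene in build GRCh38.p14. Capitals mark matches to an E2F-type motif (TTTCGCGC, TTTGGCGC, TTTCCCGC or TTTGCCGC), a CCAAT box (CCAAT), a CHR-type motif (TTTGAA) or the E-box CACGTG, on either strand.
EXO1 (chr1:241847954-241848253, plus strand): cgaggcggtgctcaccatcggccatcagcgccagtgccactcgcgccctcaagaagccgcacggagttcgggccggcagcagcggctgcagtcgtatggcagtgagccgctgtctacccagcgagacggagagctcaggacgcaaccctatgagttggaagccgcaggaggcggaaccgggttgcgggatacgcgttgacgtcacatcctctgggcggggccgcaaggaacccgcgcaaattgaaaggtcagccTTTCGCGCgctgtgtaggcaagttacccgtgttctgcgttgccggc
RAD54L (chr1:46247438-46247737, plus strand): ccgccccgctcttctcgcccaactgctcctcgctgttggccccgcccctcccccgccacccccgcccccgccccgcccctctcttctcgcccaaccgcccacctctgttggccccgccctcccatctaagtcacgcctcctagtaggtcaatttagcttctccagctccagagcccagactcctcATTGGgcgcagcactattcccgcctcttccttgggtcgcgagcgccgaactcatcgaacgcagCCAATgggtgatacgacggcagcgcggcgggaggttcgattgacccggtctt
XRCC3 (chr14:103715402-103715701, minus strand): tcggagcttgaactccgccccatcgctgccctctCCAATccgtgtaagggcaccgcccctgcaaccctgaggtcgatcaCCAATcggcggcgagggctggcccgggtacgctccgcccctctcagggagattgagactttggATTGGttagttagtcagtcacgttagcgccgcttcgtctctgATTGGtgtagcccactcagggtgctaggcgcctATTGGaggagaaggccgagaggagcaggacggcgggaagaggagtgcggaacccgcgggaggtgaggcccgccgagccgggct
UBE2T (chr1:202341887-202342186, minus strand): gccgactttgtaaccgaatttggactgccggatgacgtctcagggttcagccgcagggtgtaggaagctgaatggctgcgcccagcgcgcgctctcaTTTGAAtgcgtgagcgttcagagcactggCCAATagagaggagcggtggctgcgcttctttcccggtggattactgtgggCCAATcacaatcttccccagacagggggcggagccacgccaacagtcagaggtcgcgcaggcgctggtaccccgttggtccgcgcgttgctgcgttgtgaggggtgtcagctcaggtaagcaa
FANCA (chr16:89816598-89816897, minus strand): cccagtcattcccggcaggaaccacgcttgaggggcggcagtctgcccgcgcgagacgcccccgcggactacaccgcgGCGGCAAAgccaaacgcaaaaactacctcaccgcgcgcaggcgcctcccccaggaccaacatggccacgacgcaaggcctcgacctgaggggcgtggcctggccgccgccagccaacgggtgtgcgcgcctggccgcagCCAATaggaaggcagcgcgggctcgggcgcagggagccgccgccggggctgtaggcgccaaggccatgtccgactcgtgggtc
RAD50 (chr5:132556727-132557026, plus strand): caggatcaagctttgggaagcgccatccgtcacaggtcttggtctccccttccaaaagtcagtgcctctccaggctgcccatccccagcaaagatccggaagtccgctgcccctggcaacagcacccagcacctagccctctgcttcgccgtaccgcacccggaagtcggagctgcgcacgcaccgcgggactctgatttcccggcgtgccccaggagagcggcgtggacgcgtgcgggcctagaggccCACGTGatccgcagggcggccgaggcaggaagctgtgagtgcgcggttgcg
ATM (chr11:108222817-108223116, plus strand): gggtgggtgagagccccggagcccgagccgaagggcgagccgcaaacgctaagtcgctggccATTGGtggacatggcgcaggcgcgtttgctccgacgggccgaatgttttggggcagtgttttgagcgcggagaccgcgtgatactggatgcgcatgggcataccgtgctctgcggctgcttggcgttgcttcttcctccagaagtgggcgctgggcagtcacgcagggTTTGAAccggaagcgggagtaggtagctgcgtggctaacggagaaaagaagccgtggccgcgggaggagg

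EXO1 held an E2F-type match close to its start, FANCA an E2F-type match and a CCAAT box, RAD54L, XRCC3 and UBE2T CCAAT boxes (5 in XRCC3), and UBE2T also a CHR-type motif. RAD50 held CACGTG, the letters that MITF family proteins bind, and none of the other motifs, while ATM held a CCAAT box and a CHR-type motif. Promoters were matched for 32 of the 35 members. Of these, 6 (18.8%; EXO1, FANCA, FANCC, FANCD2, TOPBP1 and XRCC2) held an E2F-type match against 3.33% of all 27305 promoters of that length. CCAAT was found in 15 members (46.9%, against 35.7% of all promoters), TTTGAA in 4 (12.5%, against 15.4%), and CACGTG in 3 (BRCA2, FANCC and RAD50, 9.38%, against 7.43%). The related letters CATGTG were found in 1 member (FANCL, 3.13%, against 11.2%). The 6 members with an E2F-type match had mean log2 fold changes with Torin of -1.67 to -0.36 with a median of -0.95, and the 26 without had -1.49 to 1.21 with a median of -0.67, so the ranges overlap. Letters in a window are a description and do not show that a factor binds there.

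**Figure D1:**
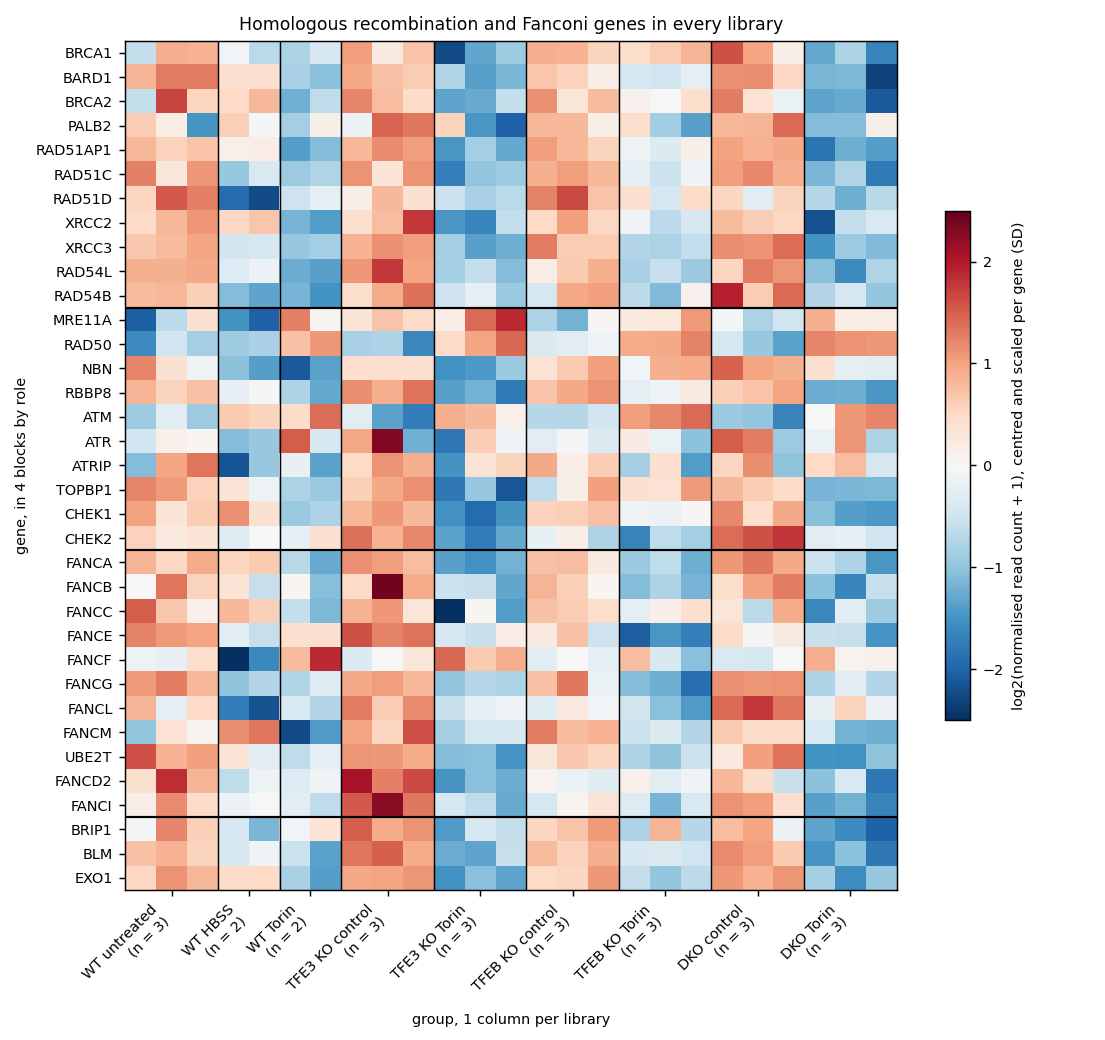
Log2(normalised read count + 1) of the 35 members in each of the 25 libraries, centred and scaled per gene (SD units), with 1 row per gene in 4 blocks by role and 1 column per library grouped by condition. The Torin columns are blue (low) for most rows in WT, TFE3 KO and DKO and paler in TFEB KO, whereas RAD50 and ATM are red (high) there.

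Torin in WT cells asks what loss of mTOR activity does to these transcripts. In the 2 WT Torin libraries, 24 of 35 members were lower than in untreated WT, where 23.4% of all genes tested were lower, and 3 were higher, where 20.5% were. The median log2 fold change of the members was -0.57, against 0.0013 over all genes. At least 2-fold falls were found in 10 members (4.0% of all genes fell so far): RAD54L, EXO1, XRCC2, BARD1, XRCC3, UBE2T, FANCA, RAD51AP1, RBBP8 and RAD54B. In bulk RNA, fewer cells in a phase or state and less RNA per cell cannot be told apart.

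The recombination core (11 members) held most of the falls of at least 2-fold in WT with Torin. In TFE3 KO, TFEB KO and DKO it held 5 of 13, 2 of 4 and 6 of 13 such falls. In WT, 10 of the 11 fell with Torin and 6 of them by at least 2-fold, and PALB2, the bridge between BRCA1 and BRCA2, was at 26.6, 24.5 and 18.1 untreated and at 20.4 and 24.4 with Torin (log2 fold change -0.03, adjusted p 0.906). RAD54L, a motor protein that assists invasion of the sister DNA, was 20.2, 20.2 and 20.9 in untreated WT and 5.86 and 5.45 with Torin. These groups lie far apart, with a log2 fold change of -1.69 (SE 0.21, adjusted p 5.82e-09). XRCC3, which assists strand exchange, was 13.0, 13.9 and 15.4 untreated and 5.16 and 5.45 with Torin (-1.26, SE 0.21, adjusted p 2.46e-06). XRCC2, which works in a complex with RAD51D, was 8.05, 9.70 and 11.1 untreated and 3.28 and 2.84 with Torin (-1.38, SE 0.28, adjusted p 6.62e-05). Neither gene's libraries overlap between the groups. BARD1, the partner of BRCA1 in its ubiquitin ligase, was 43.2, 52.9 and 52.5 untreated and 20.9 and 18.7 with Torin (-1.28, SE 0.17, adjusted p 1.57e-08). RAD51AP1, which stimulates strand exchange, was 110.1, 99.4 and 106 untreated and 44.5 and 50.2 with Torin (-1.13, SE 0.11, adjusted p 1.45e-11). Both genes were lower in every Torin library than in every untreated one. BRCA1 itself moved less, from 51.8, 76.6 and 75.7 to 49.2 and 54.3, so that the groups overlap (-0.37, adjusted p 0.0456).

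Among the Fanconi genes (11 members), 8 fell in WT with Torin. UBE2T was 109.8, 73.2 and 79.2 in untreated WT and 31.9 and 39.8 with Torin (-1.25, SE 0.21, adjusted p 3.38e-05). FANCA, a core complex subunit, was 42.6, 36.2 and 44.5 untreated and 19.9 and 14.9 with Torin (-1.20, SE 0.16, adjusted p 4.1e-08). The Torin libraries of both genes lie below all untreated ones. The FANCD2 and FANCI pair fell less, by 0.39 (adjusted p 0.0156) and by 0.29 (adjusted p 0.0182) on the log2 scale. FANCB, FANCE and FANCF, all core complex subunits, did not pass, and FANCF had the one positive value of this role, 0.46 (adjusted p 0.0515), from 12.5, 12.3 and 14.4 untreated to 15.9 and 21.1 with Torin.

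Of the helicases and the nuclease, EXO1 was 29.1, 42.0 and 35.3 in untreated WT and 12.7 and 8.77 with Torin (-1.64, SE 0.18, adjusted p 3.31e-10). BLM, the helicase lost in Bloom syndrome, was 44.2, 46.9 and 41.4 untreated and 26.7 and 19.4 with Torin (-0.92 on the log2 scale, passed). Both were lower in each Torin library than in each untreated one, whereas BRIP1, a helicase that binds BRCA1, was at 8.55, 13.9 and 10.9 and at 8.44 and 9.95, which overlap, and did not pass.

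The sensors and kinases split in direction. Of these 10 members, 4 fell (NBN, RBBP8, TOPBP1 and CHEK1) and 3 rose (RAD50, ATM and MRE11A) in WT with Torin. RBBP8, which starts resection, was 61.8, 54.6 and 58.9 untreated and 30.9 and 24.9 with Torin (-1.05, SE 0.13, adjusted p 4.6e-09). RAD50, the coiled-coil ATPase of MRN, was 30.9, 51.9 and 43.3 untreated (mean 42.0 ± 10.5, SD, n = 3) and 91.2 and 108 with Torin (99.4 ± 11.6, SD, n = 2), a log2 fold change of 1.25 (SE 0.21, adjusted p 5.42e-05). The RAD50 groups do not overlap. NBN, its partner that recruits ATM, moved the other way, from 46.2, 40.2 and 36.9 to 26.5 and 30.1 (-0.52, adjusted p 0.000674). MRE11A, the nuclease of the complex, was 26.3, 33.8 and 40.8 untreated and 47.8 and 38.4 with Torin, which overlap (0.36, adjusted p 0.0397). ATM, the kinase that MRN activates, was 22.3, 27.3 and 22.2 untreated and 34.5 and 46.2 with Torin, with no overlap (0.72, SE 0.17). The ratio of RAD50 to NBN within a library was 0.669 to 1.29 in untreated WT and 3.44 to 3.57 with Torin, and it was 0.752 to 1.11 in TFE3 KO controls and 2.78 to 3.94 with Torin, 1.37 to 1.38 in TFEB KO controls and 2.32 to 2.69 with Torin, and 0.792 to 1.10 in DKO controls and 2.85 to 3.04 with Torin. The 3 subunits of MRN thus did not keep their proportions at the RNA level in any of the 4 genotypes. The last 500 bases of the exons of RAD50 (chromosome 5, 132556019 to 132646349, plus strand) overlap an annotated same-strand gene that has no symbol. The length of this overlap was not measured, and reads from the shared part cannot be told apart here.

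**Figure D2:**
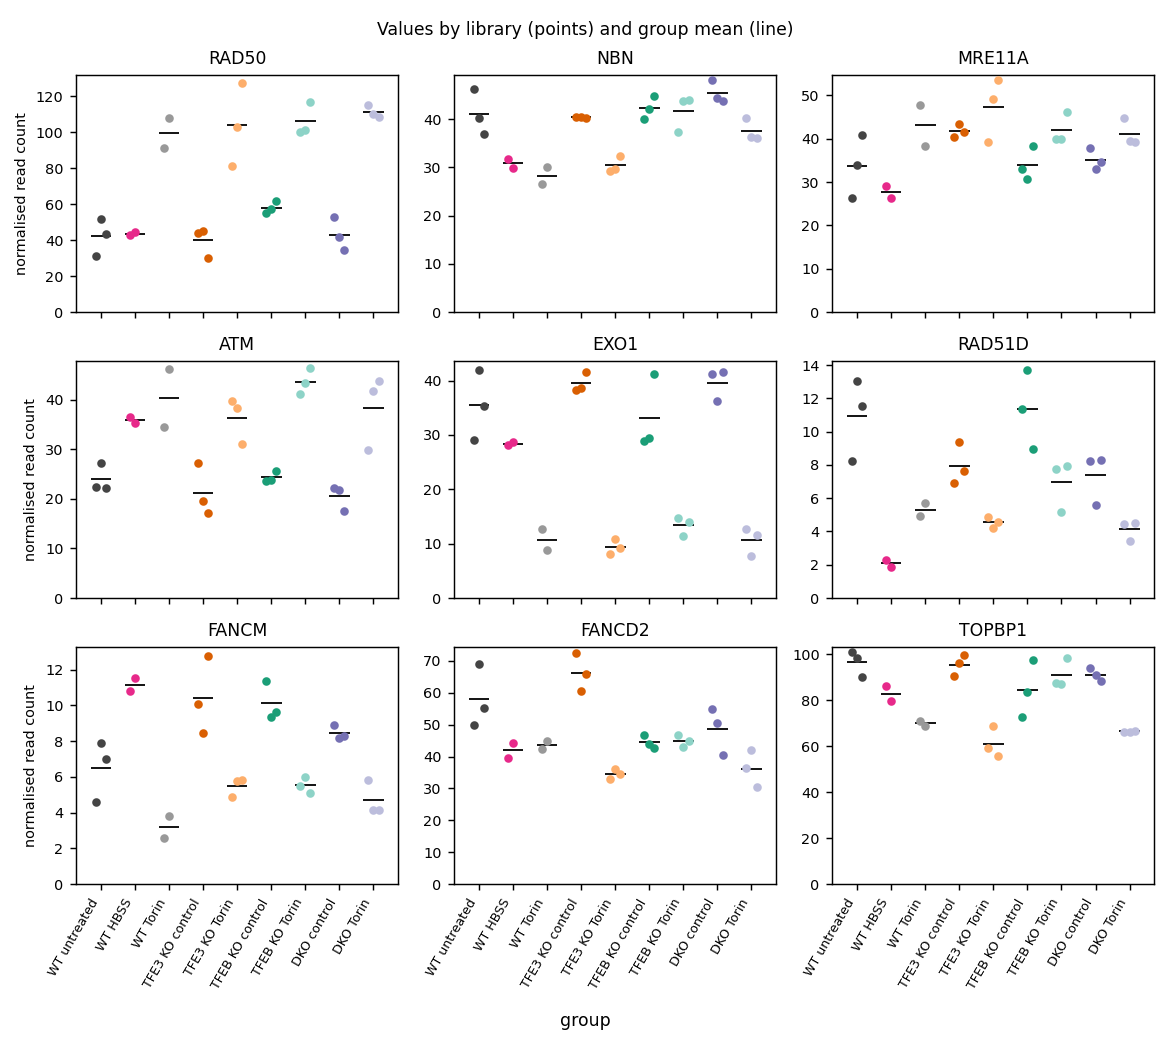
Normalised read counts (linear axes from 0) of 9 members in the 9 groups, with 1 point per library and a line at the group mean. RAD50 and ATM are higher and EXO1 lower in the Torin libraries of each genotype, and RAD51D is lowest in WT HBSS. FANCM in WT HBSS is higher than in untreated WT but within the range of the TFE3 KO controls, and it is lower in Torin. The Torin libraries of FANCD2 and TOPBP1 overlap their controls in TFEB KO.

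The same treatment was given to the 3 knockout clones, each with its own control libraries. With Torin, 29 members were lower and 2 higher in TFE3 KO (background 26.0% lower and 25.4% higher), 19 lower and 2 higher in TFEB KO (21.0% and 17.4%), and 28 lower and 2 higher in DKO (26.2% and 25.4%). Falls of at least 2-fold were found in 13 members in TFE3 KO (4.69% of all genes), 4 in TFEB KO (1.65%) and 13 in DKO (4.29%). The median log2 fold change of the members was -0.80 in TFE3 KO, -0.50 in TFEB KO and -0.74 in DKO, against 0.023, 0.0032 and 0.021 over all genes.

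Over the 4 genotypes, 17 members were lower in all 4, as were 14.2% of all genes tested: 8 of the recombination core (BARD1, RAD51AP1, RAD51C, RAD51D, XRCC2, XRCC3, RAD54L and RAD54B), 5 Fanconi genes (FANCA, FANCG, FANCL, FANCM and UBE2T), RBBP8, CHEK1, BLM and EXO1. RAD50 and ATM were higher in all 4 (10.6% of all genes were), and ATR, ATRIP and FANCF passed in none. Mean log2 fold changes over the 4 were -1.67 for EXO1, -1.49 for RAD54L, -1.43 for XRCC3, -1.42 for UBE2T and -1.31 for FANCA, and 1.21 for RAD50 and 0.79 for ATM. EXO1 was 38.3, 38.6 and 41.6 in TFE3 KO controls and 8.06, 10.9 and 9.15 with Torin, 28.9, 29.4 and 41.1 in TFEB KO controls and 14.7, 11.5 and 14 with Torin, and 41.1, 36.3 and 41.5 in DKO controls and 12.6, 7.78 and 11.6 with Torin. RAD50 was 44.2, 45.1 and 30.3 in TFE3 KO controls and 81.2, 103 and 127 with Torin, 54.9, 57.4 and 61.8 in TFEB KO controls and 100.2, 101 and 116 with Torin, and 53.0, 41.5 and 34.6 in DKO controls and 115, 110.0 and 108 with Torin. For both genes no Torin library of a genotype overlaps its controls. The log2 fold changes of RAD50 were 1.36 (SE 0.18) in TFE3 KO, 0.86 (SE 0.18) in TFEB KO and 1.37 (SE 0.18) in DKO, all with adjusted p of 0.000973 or less.

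The other large falls in the knockouts were of the same order. UBE2T was 82.8, 82.4 and 75.6 in TFE3 KO controls and 24.8, 25.4 and 19.97 with Torin (-1.74), 53.1, 65.8 and 61.0 in TFEB KO controls and 29.8, 25.9 and 33.8 with Torin (-0.98), and 51.9, 80.0 and 95.5 in DKO controls and 19.8, 19.5 and 26.2 with Torin (-1.72). XRCC3 was 14.5, 16.7 and 15.9 against 5.51, 4.01 and 4.37 in TFE3 KO (-1.58), 18.2, 12.7 and 12.8 against 5.86, 5.65 and 6.31 in TFEB KO (-1.15), and 17, 16.6 and 19.3 against 3.69, 5.31 and 4.72 in DKO (-1.75). In each genotype the treated libraries of both genes lie below all controls. RAD54L was 22.6, 32.7 and 21.2 in TFE3 KO controls and 7.42, 8.68 and 6.45 with Torin, 13.7, 17.6 and 20.4 in TFEB KO controls and 7.59, 8.79 and 7.13 with Torin, and 16.5, 25.4 and 22.9 in DKO controls and 6.61, 4.74 and 7.87 with Torin. FANCA was 49.3, 47.1 and 41.2 in TFE3 KO controls and 14.2, 13.1 and 15.6 with Torin, 40.3, 41.0 and 31.5 in TFEB KO controls and 17.8, 20.4 and 15.3 with Torin, and 47.8, 53.3 and 44.9 in DKO controls and 21.5, 19.2 and 13.6 with Torin. These falls were likewise without overlap. The 3′ ends of RAD54L and FANCA overlap LRRC41 and ZNF276 on the opposite strand, and the sources used here do not say whether reads were counted by strand.

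**Figure D3:**
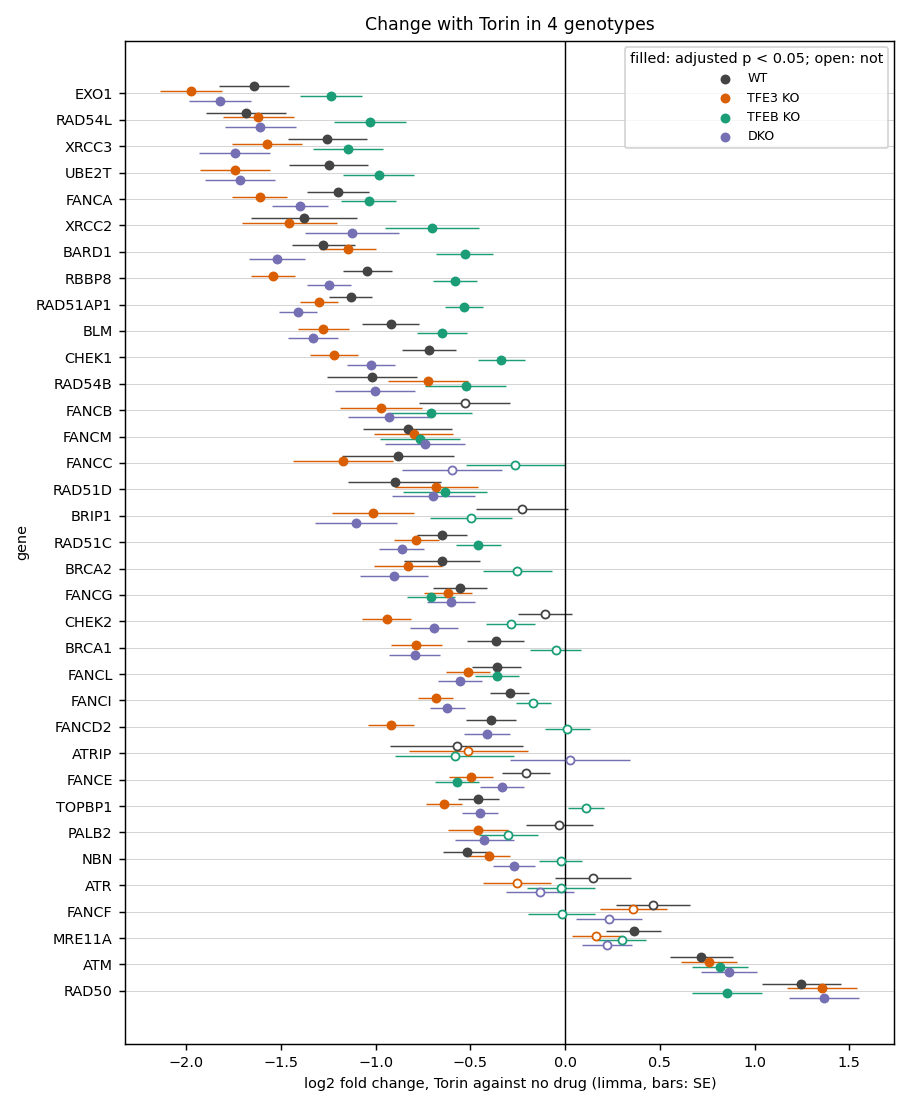
Log2 fold change with Torin (limma, bars: SE) of each member in WT, in TFE3 KO, in TFEB KO and in DKO, ordered by the mean over the 4, with filled points at an adjusted p under 0.05. EXO1 to BLM sit left of 0 in all 4 genotypes, RAD50 and ATM sit right of 0, and the TFEB KO point is the rightmost for 22 of the 35 members. The share of all genes with the TFEB KO value as the highest was not counted, so this count is a description.

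The test of whether the Torin response differs between genotypes was made on the difference of the log2 fold changes. Of the 4 differences tested (each knockout minus WT, and TFE3 KO minus TFEB KO), that between TFE3 KO and TFEB KO passed in the most members, and DKO was not tested against the single knockouts. In 10 members the response was more negative in TFE3 KO than in TFEB KO, in 0 members the reverse passed, and 7.68% of all genes passed in either direction. These 10 were RBBP8, FANCD2, CHEK1, RAD51AP1, TOPBP1, EXO1, BRCA1, CHEK2, BLM and FANCI, from 4 different roles. With the column that carries 2 labels counted as WT Torin, 4 of the 10 passed (RBBP8, FANCD2, CHEK1 and TOPBP1) and the share of all genes was 1.90%, although the column is in neither clone and the differences themselves stay as they are. RBBP8 was 70.3, 63.0 and 76.4 in TFE3 KO controls and 24.0, 26.1 and 20.2 with Torin, and 58.1, 64.3 and 69.5 in TFEB KO controls and 39.1, 40.8 and 47.2 with Torin. It fell in both, by 1.54 and by 0.58 on the log2 scale, and the difference was -0.96 (SE 0.16, adjusted p 5.28e-05). FANCD2, the substrate that the Fanconi core complex ubiquitinates, was 72.4, 60.4 and 66.0 in TFE3 KO controls and 32.9, 36.1 and 34.5 with Torin, and 46.7, 44 and 42.8 in TFEB KO controls and 46.9, 42.9 and 44.8 with Torin. Its groups are apart in TFE3 KO and overlap in TFEB KO, with a difference of -0.93 (SE 0.17, adjusted p 0.000157). TOPBP1, which activates ATR, was 90.4, 96.2 and 99.8 in TFE3 KO controls and 59.1, 68.8 and 55.5 with Torin, and 72.6, 83.6 and 97.6 in TFEB KO controls and 87.6, 86.9 and 98.3 with Torin. The difference was -0.75 (SE 0.13, adjusted p 0.000119), with a log2 fold change of -0.64 in TFE3 KO and 0.11 (adjusted p 0.379) in TFEB KO. CHEK1, the kinase downstream of ATR, was 38.5, 42.0 and 38.4 in TFE3 KO controls and 17.2, 14.9 and 17.3 with Torin, and 35.3, 35.6 and 37.3 in TFEB KO controls and 28.1, 27.6 and 29.3 with Torin. It fell without overlap in both clones, and the difference was -0.88 (SE 0.18, adjusted p 0.000645). RAD51AP1 was 110.4, 128 and 121 in TFE3 KO controls and 43.0, 55.2 and 46.2 with Torin, and 120.2, 111 and 99.0 in TFEB KO controls and 74.7, 68.5 and 83.7 with Torin (difference -0.77, SE 0.14, adjusted p 0.000202).

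The responses of the single clones differed from that of WT in fewer members. Between TFE3 KO and WT, 1 member passed (1.06% of all genes): CHEK2, which relays ATM signals, at 38.3, 33.6 and 36.5 in TFE3 KO controls and 18.9, 16.9 and 19.1 with Torin, against 31.1, 28.5 and 29.3 in untreated WT and 25.3 and 29.6 with Torin (difference -0.84, SE 0.19, adjusted p 0.0157). Without WT Torin replicate 3 or TFE3 KO control replicate 1 it did not pass (adjusted p 0.147 and 0.055). FANCD2, RBBP8, FANCI and CHEK1 came next, with differences of -0.53, -0.50, -0.39 and -0.50 and adjusted p of 0.191, 0.208, 0.22 and 0.258. Between TFEB KO and WT, 2 members passed (1.16% of all genes), RAD51AP1 (0.60, SE 0.15, adjusted p 0.0338) and TOPBP1 (0.57, SE 0.14, adjusted p 0.0332), both with a smaller fall in TFEB KO. Their number fell to 0 without WT untreated replicate 1, WT Torin replicate 2 or 3, TFEB KO control replicate 2 or TFEB KO Torin replicate 3, and to 1 without WT untreated replicate 2 or 3, TFEB KO control replicate 1 or 3, or TFEB KO Torin replicate 1. BARD1, NBN and RBBP8 had differences of 0.75, 0.50 and 0.46 there that did not pass (adjusted p 0.0843, 0.142 and 0.192). Between DKO and WT, 0 members passed by limma, edgeR or DESeq2 (0.506% of all genes passed by limma). The unadjusted limma p was under 0.05 in 5 of the 35 members and in 1282 of the 13052 genes tested. The nearest were CHEK2 (-0.59, adjusted p 0.184), BRIP1 (-0.88, adjusted p 0.286), FANCI (-0.33), BRCA1 (-0.43) and BLM (-0.41). CHEK2 and FANCD2 have near-identical pseudogene copies, and how the counting treated reads that match several places is not given in the sources used here.

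Under Torin itself, levels in the knockouts were compared with WT. CHEK2 was the 1 member that differed in TFE3 KO (-0.56, adjusted p 0.00696, background 9.64%), and 0 did without WT Torin replicate 3. In TFEB KO 9 members differed (background 18%): BRCA1, RAD51AP1, NBN, RBBP8, TOPBP1 and FANCM were higher and CHEK2, FANCE and FANCF lower. FANCE, the core subunit that contacts FANCD2, was 24.0, 27.3 and 25.9 in TFEB KO Torin and 40.8 and 40.8 in WT Torin (-0.65, SE 0.13, adjusted p 0.00025). RAD51AP1 had the largest positive difference, 0.66 (SE 0.11, adjusted p 2.9e-05). Without WT Torin replicate 2, WT Torin replicate 3 or TFEB KO Torin replicate 3 the count was 5, 3 and 5. In DKO 4 members differed (background 12.1%): NBN was higher, at 40.3, 36.2 and 36.0 against 26.5 and 30.1 (0.40, SE 0.13, adjusted p 0.0289), and FANCE (-0.38), UBE2T (-0.69) and BRIP1 (-0.91) were lower. The count in DKO was 1 without WT Torin replicate 2, 0 without WT Torin replicate 3 and 2 without DKO Torin replicate 1, and NBN did not pass in any of these fits (adjusted p 0.262, 0.0531 and 0.111).

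Without drug, the question is whether TFE3 or TFEB sets these transcripts when nutrients are present, and few members differed from WT. FANCI was the 1 member that passed in TFE3 KO (background 9.41%), at 135, 156 and 129.7 against 104, 127 and 110.3 in WT (0.30, adjusted p 0.0274). FANCD2 was the 1 in TFEB KO (background 14.6%), at 46.7, 44 and 42.8 against 49.96, 68.9 and 55.2 (-0.36, adjusted p 0.0329). In DKO 2 passed (background 13.1%), CHEK2 (38.5, 40.4 and 42.6 against 31.1, 28.5 and 29.3, 0.44, adjusted p 0.0144) and FANCL, the ubiquitin ligase of the core complex (68.9, 75.5 and 67.5 against 59.0, 43.7 and 53.5, 0.44, adjusted p 0.00669). The 3′ ends of FANCI and FANCL overlap POLG and VRK2 on the opposite strand. None of the 4 genes' groups overlap, but all the shares are below the background of their comparison. These counts rest on single libraries. In TFE3 KO it was 0 without WT untreated replicate 1 or TFE3 KO control replicate 1 and 2 without WT untreated replicate 2. In TFEB KO it was 0 without WT untreated replicate 3 or TFEB KO control replicate 1, 2 without WT untreated replicate 1, and 3 (1 lower and 2 higher) without WT untreated replicate 2. In DKO it was 0 without WT untreated replicate 2 and 1 without DKO control replicate 3.

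Set directly against each other without drug, TFE3 KO was higher than TFEB KO in 6 members (background 14.3%) and lower in 1 (background 15.6%). The 6 were FANCD2 (0.56), RAD54L (0.53), CHEK2 (0.51), FANCI (0.47), FANCL (0.41) and FANCE (0.37), of which 4 are Fanconi genes. RAD50 was the one lower, at 44.2, 45.1 and 30.3 against 54.9, 57.4 and 61.8 (-0.55, SE 0.18, adjusted p 0.0293). It did not pass without TFEB KO control replicate 1, 2 or 3 or TFE3 KO control replicate 3 (adjusted p 0.0541, 0.0653, 0.0912 and 0.135). FANCD2 therefore started higher and ended lower in TFE3 KO than in TFEB KO when Torin was added, since its levels with Torin were 32.9, 36.1 and 34.5 against 46.9, 42.9 and 44.8.

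HBSS tests the same genes in WT cells held in a saline without amino acids. In the 2 HBSS libraries 18 members were lower than in untreated WT (background 24.7%) and 2 higher (background 23.6%), with a median log2 fold change of -0.35 against -0.026 over all genes. By role, 7 of the 11 recombination genes, 6 of the 11 Fanconi genes, 3 of the 10 sensors and kinases and 2 of the 3 helicases and nuclease fell. A fall of at least 2-fold was found in 1 member (6.20% of all genes): RAD51D, the partner of XRCC2, at 8.22, 13.1 and 11.5 untreated (10.9 ± 2.48, SD, n = 3) and 2.30 and 1.88 in HBSS (2.09 ± 0.295, SD, n = 2). The log2 fold change was -1.93 (SE 0.25, adjusted p 6.06e-09), and the HBSS libraries lie below those of all other groups. Next came ATRIP, the partner of ATR (-0.97, adjusted p 0.0253), RAD54B (-0.96), XRCC3 (-0.91), FANCL (-0.90), UBE2T (-0.88), RAD54L (-0.87) and FANCF (-0.87). The 3′ end of ATRIP overlaps an exon of TREX1 on the same strand, so its reads may be those of TREX1. FANCM, the motor protein that anchors the core complex to DNA, rose from 4.60, 7.92 and 7.03 to 10.8 and 11.5 (0.72, SE 0.24, adjusted p 0.00949). FANCM did not pass without WT untreated replicate 1 (0.52, adjusted p 0.0841) or WT HBSS replicate 2 (0.68, adjusted p 0.0669). Its HBSS values lie within the TFE3 KO controls (10.1, 8.43 and 12.8). The TFEB KO controls were at 11.4, 9.37 and 9.62 and the DKO controls at 8.88, 8.19 and 8.30. ATM rose from 22.3, 27.3 and 22.2 to 36.6 and 35.4 (0.57, adjusted p 0.00344).

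HBSS and Torin in WT share the same 3 untreated libraries, so their values stand side by side. ATRIP, BRIP1, FANCE and FANCF passed lower in HBSS and did not pass with Torin, and 9 members (BRCA1, BRCA2, XRCC2, TOPBP1, CHEK1, FANCA, FANCC, FANCI and EXO1) passed lower with Torin and did not pass in HBSS. FANCM passed higher in HBSS and lower with Torin. The shares of all genes with these patterns were not counted, and passing in HBSS or Torin alone does not test a difference. The direct test of HBSS against Torin gave 12 members higher in HBSS (background 26.1%) and 5 lower (background 23.1%). In either direction 17 of the 35 members differed, near the share of all genes tested (49.2%). FANCM was 10.8 and 11.5 in HBSS and 2.58 and 3.79 with Torin (1.55, SE 0.26, adjusted p 2.12e-06). EXO1 was 28.1 and 28.7 in HBSS and 12.7 and 8.77 with Torin (1.35, SE 0.20, adjusted p 2.7e-07). Both genes were at least 2-fold higher in HBSS by this fit. XRCC2 was 8.28 and 9.0 in HBSS against 3.28 and 2.84 (1.25, adjusted p 0.000674), and FANCA 36.6 and 38.9 against 19.9 and 14.9 (1.09, adjusted p 1.76e-06). In the other direction, FANCF was 5.29 and 8.37 in HBSS and 15.9 and 21.1 with Torin (-1.33, SE 0.22, adjusted p 1.29e-06), RAD50 42.8 and 44.4 against 91.2 and 108 (-1.17, SE 0.23, adjusted p 0.000253), and RAD51D 2.30 and 1.88 against 4.92 and 5.69 (-1.03, SE 0.27, adjusted p 0.00145). None of these pairs overlap. MRE11A (-0.61) and FANCL (-0.54) were also lower in HBSS than with Torin. RAD50 in HBSS did not pass against untreated cells (0.08, SE 0.21, adjusted p 0.777), and the ratio of RAD50 to NBN was 1.35 to 1.48 there. If the column that carries both labels is counted as WT Torin, 8 members differ between HBSS and Torin in place of 17, and FANCF (-0.73, adjusted p 0.105) and XRCC2 (0.76, adjusted p 0.125) do not pass.

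**Figure D4:**
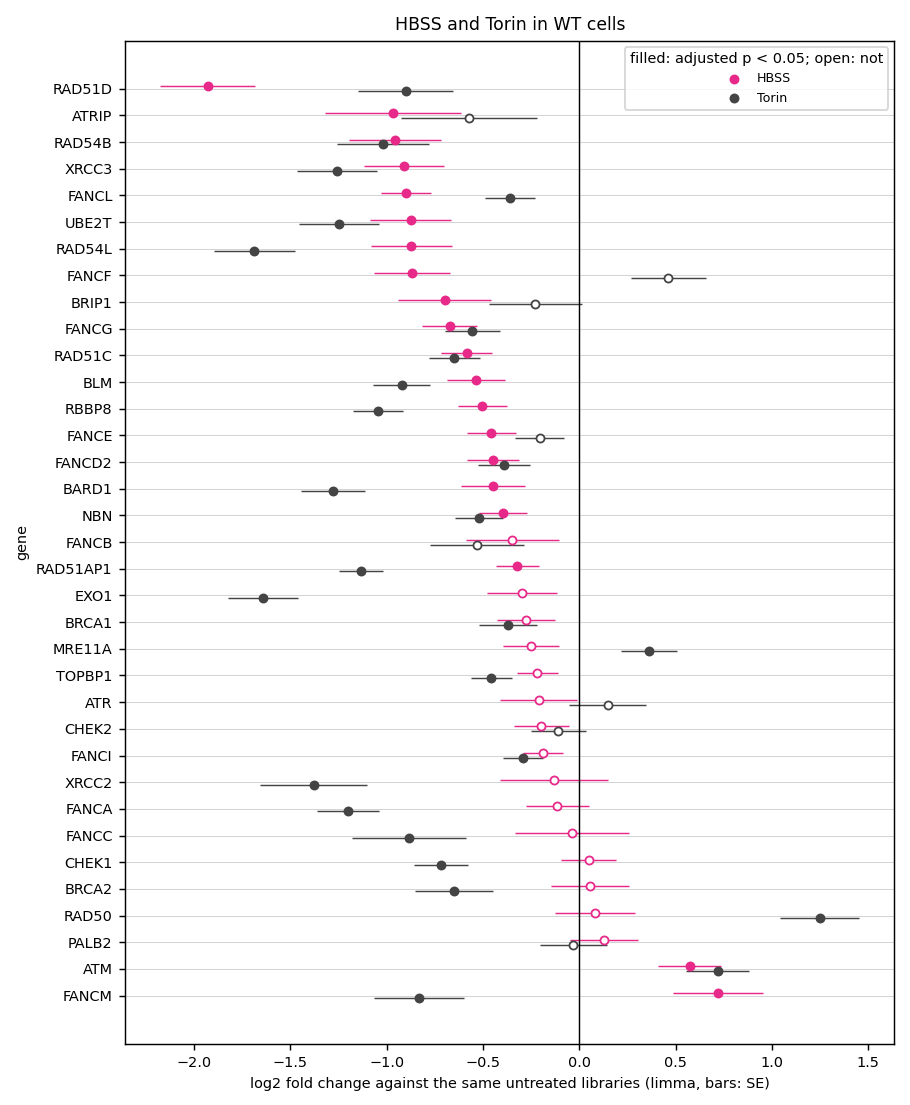
Log2 fold change of each member in WT with HBSS and with Torin, both against the same 3 untreated libraries (limma, bars: SE, filled points at an adjusted p under 0.05), ordered by the HBSS value. RAD51D lies furthest left in HBSS, and FANCM lies right of 0 in HBSS and left of 0 with Torin.

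Other genes of the pathway had medians nearer to 0 than the members with Torin. Of 46 other recombination and Fanconi genes, 19 fell and 3 rose in WT, 21 and 7 in TFE3 KO, 17 and 4 in TFEB KO and 25 and 8 in DKO, with medians of -0.31, -0.30, -0.25 and -0.34, and 21 fell and 7 rose in HBSS with a median of -0.32. Of 30 checkpoint and fork protection genes, 14, 17, 11 and 17 fell with Torin in WT, in TFE3 KO, in TFEB KO and in DKO and 3, 4, 3 and 4 rose, and 12 fell and 2 rose in HBSS. The medians of this list were -0.36, -0.46, -0.32 and -0.45 with Torin and -0.35 in HBSS. CLSPN, the mediator between ATR and CHEK1, lay at the low end of the list. Its log2 fold changes were -2.08, -2.75, -1.31 and -2.73 with Torin and -1.59 in HBSS. Of 17 end joining genes, 8, 8, 7 and 7 fell and 4, 4, 2 and 5 rose with Torin, with medians of -0.051, -0.09, -0.25 and -0.17, and 8 fell and 1 rose in HBSS with a median of 0.029. Of 30 mismatch and excision repair genes, 7, 9, 8 and 8 fell and 7, 7, 8 and 6 rose with Torin, with medians of -0.025, -0.079, -0.029 and -0.14. In HBSS 16 of these fell and 3 rose, with a median of -0.41, below that of the members.

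The S phase genes mostly fell, as the members did, in HBSS and with Torin, whereas the mitosis genes mostly rose in HBSS. Of 45 S phase genes, 41, 43, 40 and 43 fell with Torin in WT, in TFE3 KO, in TFEB KO and in DKO and 0 rose in any of the 4, with medians of -1.14, -1.53, -0.82 and -1.46. Their summed level was 4559 to 4645 in untreated WT, 2060 to 2105 in WT Torin, 1724 to 1818 in TFE3 KO Torin, 2167 to 2249 in TFEB KO Torin and 1752 to 1815 in DKO Torin. The summed level of the 35 members was 1331 to 1402 in untreated WT, 968 to 989 in WT Torin, 852 to 928 in TFE3 KO Torin, 1053 to 1128 in TFEB KO Torin and 869 to 947 in DKO Torin. Both sums thus have TFEB KO as the highest of the Torin groups, and the Torin response of 29 S phase genes was more negative in TFE3 KO than in TFEB KO. In the controls the S phase sum was 4008 to 4042 in TFEB KO, 4847 to 5002 in TFE3 KO and 4689 to 4721 in DKO. That of the members was 1275 to 1313, 1450 to 1503 and 1364 to 1457 in the same order. Both sums were thus lowest in TFEB KO among the untreated WT and control groups. In HBSS 40 of the S phase genes fell and 2 rose (median -0.77, summed level 2849 to 2879), while the members summed to 1058 to 1076. Of 40 mitosis genes, 28 rose and 1 fell in HBSS (median 0.51, summed level 9756 to 9779 against 5952 to 6261 untreated), whereas 8 rose and 18 fell with Torin in WT (7 and 4 with the column of 2 labels counted as WT Torin). With Torin 31 mitosis genes fell and 4 rose in TFE3 KO, 13 and 5 in TFEB KO and 30 and 1 in DKO, with medians of -0.55, -0.10 and -0.57, and the response of 16 was more negative in TFE3 KO than in TFEB KO and that of 0 less negative. The part of the cell cycle in the members' changes was not tested.

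**Figure D5:**
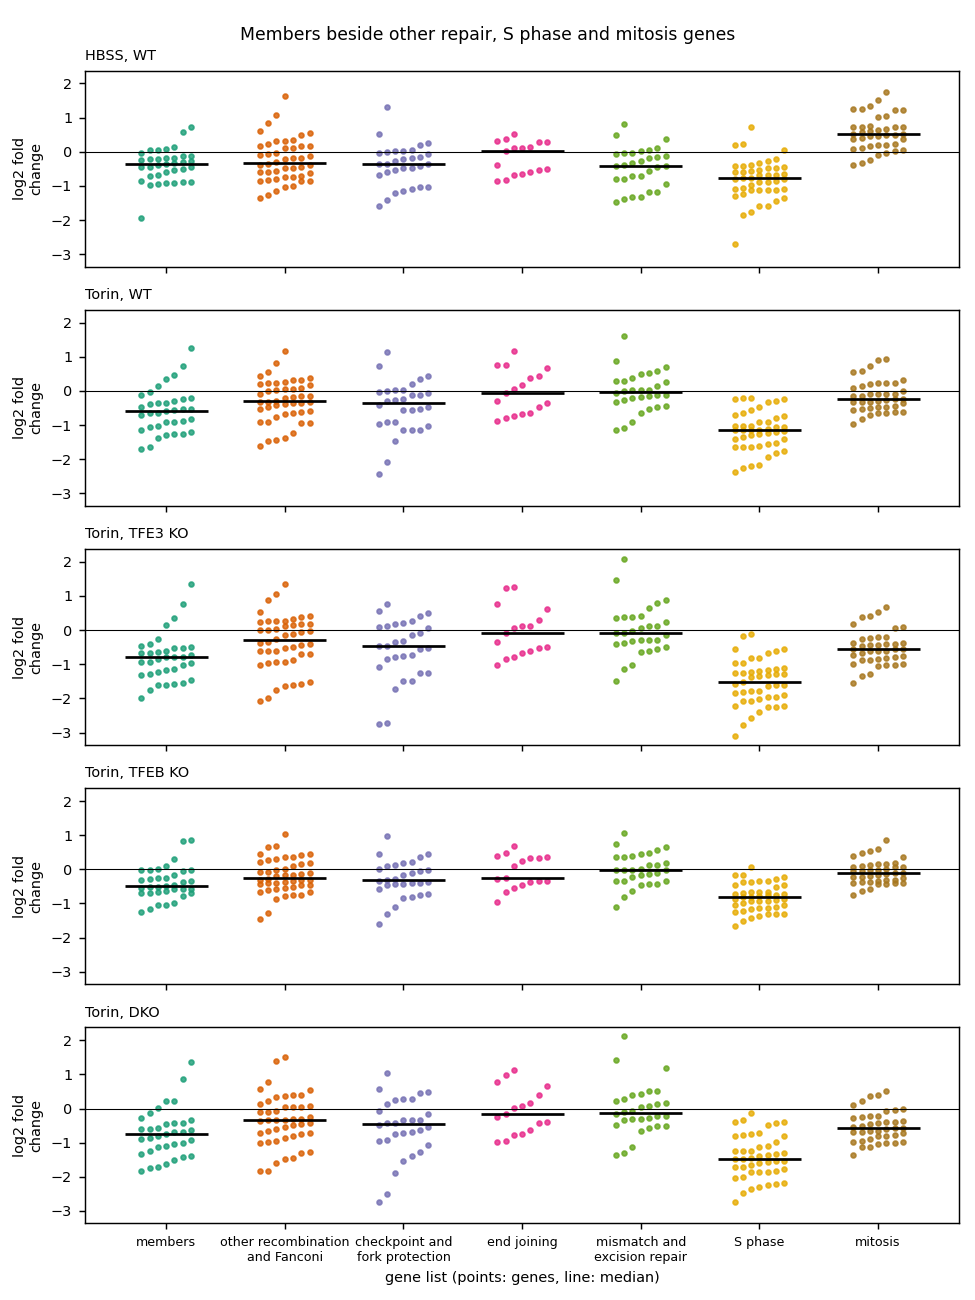
Log2 fold change of the 35 members beside 6 other gene lists in the 5 treatment comparisons (rows), with 1 point per gene and a line at the median. The S phase list lies lowest in all 5, the members lie between it and the end joining list, and the mitosis list lies above 0 in HBSS alone.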

How the data were processed

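The 27 labelled libraries are QuantSeq Forward 3′ libraries of polyadenylated RNA. Per the study's methods and the submitters' processing notes, reads were checked with FastQC 0.11.9, trimmed with cutadapt 2.10, mapped to hg38 with STAR 2.7.8a and passed to edgeR for normalisation. What the authors deposited is a signal for each of 13523 symbols, which the values show to be CPM over a library factor. How reads were counted, scaled and filtered is not given in the sources used here. In every column 100% of values were whole multiples of 1 step (within 0.01 of a step), so the reads were recovered by division. Reads are not independent molecules, and the value of 3 reads covers counting error only.

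The tests covered the 13052 genes that reached a value of 1 in 3 or more libraries (471 were left out). Log2(value + 1) was fitted with limma 3.58.1 in R 4.3.3, with 1 mean per group over the 25 libraries (eBayes with trend and robust). The column that carries 2 labels was left out, and the design as first written held all 27. The 17 comparisons are contrasts of this fit, 2-sided, with Benjamini-Hochberg adjustment over the 13052 genes. "2-fold" means a log2 fold change of 1 or more in size. Members named with values in each library are those that passed with at least a 2-fold change (up to 10 per comparison), the largest opposite change, and the 5 smallest p in the comparisons of Torin responses, and the others were chosen after their values were seen. The members were taken by symbol and their values were not used. Earlier results of these data were nevertheless known when members, lists and tests were chosen. Alternatives used edgeR 4.0.16 and DESeq2 1.42.0 on the recovered reads, other scaling, filters and pseudocounts, the identical column kept, a replicate block and leaving out each library. The scripts were tested on simulated data.

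Promoters are from RefSeq (GRCh38.p14), and gene positions and 3′ end overlaps (the last 500 bases of exons) from GENCODE 44 on hg38. The 3′ ends of 7 members meet an exon of another gene (RAD54L, RAD50, ATRIP, FANCA, FANCG, FANCL and FANCI). One gene of the other recombination list is not reported here by name.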

Additional observations from a re-analysis of the deposited data

Results flagged for a closer look

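The Torin response differed between genotypes in 10 members, by a test of the difference itself in limma. Relative to WT, the response of CHEK2 was more negative in TFE3 KO, by -0.84 (adjusted p 0.0157). RAD51AP1 and TOPBP1 responded less negatively in TFEB KO than in WT, by 0.60 (adjusted p 0.0338) and 0.57 (adjusted p 0.0332). These 3 did not pass when the column that carries 2 labels was counted as WT Torin (-0.72, 0.28 and 0.49, with adjusted p of 0.103, 0.728 and 0.322). That column lay nearer to the other WT HBSS libraries than to those of WT Torin in 77.3% of the genes tested.

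Between the single knockouts, responses were more negative in TFE3 KO for 10 members. The differences were -0.96 for RBBP8, -0.93 for FANCD2, -0.88 for CHEK1, -0.77 for RAD51AP1, -0.75 for TOPBP1, -0.74 for EXO1, -0.74 for BRCA1, -0.66 for CHEK2, -0.63 for BLM and -0.52 for FANCI, with adjusted p from 5.28e-05 to 0.0379. All 6 libraries of TFE3 KO and all 6 of TFEB KO entered this test, and each clone had its own controls. With the column of 2 labels counted as WT Torin or in both groups, RBBP8, FANCD2, CHEK1 and TOPBP1 passed and 6 did not: RAD51AP1, EXO1, BRCA1, CHEK2, BLM and FANCI, with adjusted p of 0.0615 to 0.38 as WT Torin and 0.0516 to 0.362 in both. That column is in neither clone, so the differences did not change and only the estimates of spread and the p-values did. Counted as WT HBSS, all 10 passed. In the same test 29 of 45 S phase genes and 16 of 40 mitosis genes were more negative in TFE3 KO, and their part in the members' difference was not tested.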

How the results depend on the processing

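The counts of members that passed in HBSS and in each genotype with Torin kept their direction and stayed within 1.5 times under all settings run, with 17 to 21 members for HBSS, 23 to 28 for Torin in WT, 31 to 32 in TFE3 KO, 15 to 21 in TFEB KO and 29 to 30 in DKO. Leaving out 1 library at a time gave 15 to 19, 22 to 26, 29 to 31, 16 to 21 and 27 to 30 for these, 14 to 15 for HBSS against Torin, 0 to 2, 0 to 3 and 0 to 2 for TFE3 KO, TFEB KO and DKO against WT without drug, 5 to 7 between the single knockouts, 0 to 1, 3 to 7 and 0 to 3 for the 3 knockouts against WT with the drug, and 0 to 1, 0 to 2, 0 to 0 and 8 to 10 for the differences of response (TFE3 KO minus WT, TFEB KO minus WT, DKO minus WT and TFE3 KO minus TFEB KO). For TFEB KO against WT the direction turned without WT untreated replicate 2 (3 members, 1 lower and 2 higher) and, with Torin, without WT Torin replicate 2 (5 members, 3 lower and 2 higher).

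With the identical column kept as WT Torin, the counts became 8 (HBSS against Torin), 0, 0 and 1 (the knockouts against WT, no drug, in the order TFE3 KO, TFEB KO, DKO), 4 (TFE3 KO against TFEB KO), 5, 4 and 7 (against WT with Torin), and 0, 0 and 4 (responses of TFE3 KO and TFEB KO minus WT, and TFE3 KO minus TFEB KO). Kept in both groups it gave the same counts except 8 for DKO against WT with Torin, and except that HBSS against Torin stayed within 1.5 times. Kept as WT HBSS it gave 3 for TFEB KO against WT without drug. A minimum value of 5 gave 2 and 3, edgeR 2 and 5, and DESeq2 2 and 2 for TFE3 KO and TFEB KO against WT without drug. Median-of-ratios scaling gave 2 for TFEB KO there. A fit of only the libraries compared gave 4 for TFEB KO against WT without drug, 2 for TFE3 KO against WT with Torin, and 1 for the response of TFEB KO minus WT. BARD1, which did not pass in the response of TFEB KO minus WT, passed with DESeq2 (0.77, adjusted p 0.0472). The cause of these changes was not tested.

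Replicate numbers did not pair the libraries: 92 same-number pairs correlated with a median r of 0.0067 (4 over 0.1), and 9 of 25 libraries correlated best with their own number. A fit with a replicate block gave 2 members for TFEB KO against WT without drug and 2 for TFE3 KO against WT with Torin, and every other count stayed within 1.5 times.

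Among the other lists, the balance of mitosis genes in WT with Torin turned to 4 lower and 7 higher (11 passed) with the identical column as WT Torin or in both groups. The balance of mismatch and excision repair genes turned to more higher in TFE3 KO with median-of-ratios scaling, edgeR or DESeq2 (15 passed), with the column as WT Torin or in both groups (13), and without TFE3 KO control replicate 3 (14) or TFE3 KO Torin replicate 2 (15), and in DKO with edgeR (15) or DESeq2 (14). The shift of the median of all genes stayed under 0.1 on the log2 scale in each scaling. FANCC, RAD51D, FANCM, XRCC2, ATRIP, XRCC3, RAD54B and BRIP1 had as few as 8 to 19 reads in a library, which limits their precision.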
